A study of Arabidopsis thaliana with 6 samples.

Results

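The genes described here are the 33 of 33602 in the deposited gene table whose RNA was much lower in every prmt5 mutant library than in any wild type library. They were chosen on their CPM, the reads of a gene over all gene reads of its library, times 1000000. The lowest wild type CPM had to be at least 3 times the highest mutant CPM, and the mean wild type CPM at least 2. Of the 18565 genes with such a wild type mean, the 33 make up 0.178%. Because the genotype difference chose these genes, their levels and folds are descriptions and carry no test.

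Polyadenylated RNA of whole Arabidopsis thaliana plants was sequenced from 3 wild type and 3 prmt5 mutant libraries, all of the Col-0 ecotype. Seeds of both genotypes were stratified for 4 days at 4 °C in the dark on Murashige and Skoog medium with 0.8% agarose, and plants were then kept for 15 days at 22 °C in continuous white light. The labels name no allele and do not say whether the libraries came from separate plants or cultures, so p-values below measure the spread between these libraries only.

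PRMT5 encodes an arginine methyltransferase that places symmetric dimethyl marks on spliceosomal Sm proteins and on histones. Arabidopsis plants without it are known for inaccurate splicing, late flowering and an altered circadian clock. The lowered genes belong to several otherwise separate branches of plant biology, among them superoxide removal, jasmonate and ethylene induced defensins, terpene and leaf volatile synthesis, nitrate uptake and repression of flowering.

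Library totals lay between 29145068 and 59480457 gene reads, so that 1 CPM stood for 29.1 to 59.5 reads. Read density leaned more to the 3′ part of genes in wild type, with a median log2 ratio over the 5′ part of 1.27 to 1.74 against 0.74 to 1.33 in the mutant, over 11544 genes. PRMT5 itself (AT4G31120) had 31.2 ± 4.17 CPM in wild type and 57.5 ± 2.82 CPM in the mutant (SD, n = 3 each), and with no allele named and a gene that overlaps it, its RNA level is no check of the genotype labels. Leaf photosynthesis markers were lower in the mutant in 8 of 8 genes by edgeR's quasi-likelihood test at an adjusted p under 0.05. Over all genes tested, 15.9% were lower and 18.6% higher. The summed level of the leaf markers was 41897 to 49807 CPM in wild type and 28642 to 31401 CPM in the mutant. The part of this difference in the levels below was not tested. In RNA of whole plants, fewer cells of a type and less RNA per cell cannot be told apart.

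All 33 genes passed the expression filter of edgeR and were called lower in the mutant, against a background of 3494 of 21949 genes tested (15.9%), and nothing is read from this because the rule used the same contrast. Every wild type library lay above every mutant library in 19.3% of the 18565 genes with a mean of at least 2 CPM. The ratio of mean levels, wild type over mutant, ran from 4.03 in AT3G23170, an uncharacterized gene, to 61.1 in AT3G01345, with a median of 7.7. It reached 10 in 8 genes and 5 in 30. The summed level of the 33 genes was 1035, 1358 and 1389 CPM in wild type replicates 1, 2 and 3, and 175, 98 and 187 CPM in mutant replicates 1, 2 and 3. FSD1 supplied more than any other gene, and without it the sums were 435, 567 and 454 CPM in wild type and 67.5, 46.1 and 69.9 CPM in the mutant.

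**Figure D1:**
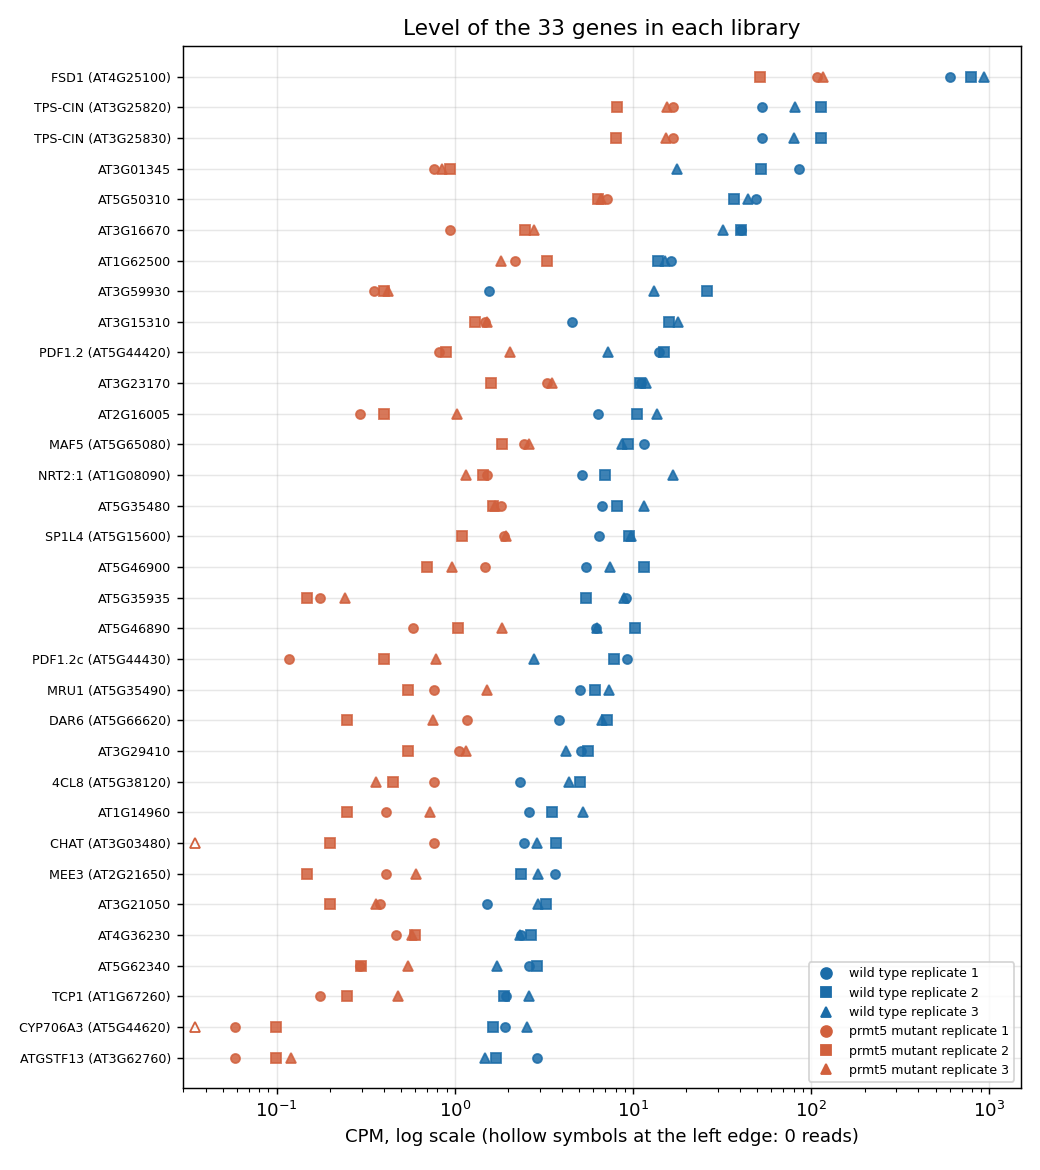
CPM (log scale) of each of the 33 genes in the 3 wild type and 3 prmt5 mutant libraries, ordered by mean wild type level, with hollow symbols for 0 reads. In every row the wild type symbols lie to the right of the mutant symbols, which the selection rule requires, and wild type replicates of AT3G59930 are spread from 1.56 to 26 CPM.

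The threshold fell in a dense range. In 24 of the 33 genes the lowest wild type level was between 3 and 4 times the highest mutant level. Just inside were the pseudogene AT3G15310 at 3.03, 4CL8 (AT5G38120), of the AMP-dependent synthetase and ligase family, at 3.07 and AT3G23170 at 3.1. Just outside were AT3G49160, of the pyruvate kinase family, at 2.98, the acyl-transferase family gene AT5G47980 at 2.94, and QQS (AT3G30720), which regulates leaf starch, at 2.91. These outer genes had ratios of mean levels of 9.07, 5.27 and 4.07, within the range of the genes inside.

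The most detailed pattern inside a gene was in AT5G50310, annotated as a galactose oxidase/kelch repeat protein, on the plus strand at chr5:20474487-20479455 (TAIR10), with 20 exons. Its gene level was 49.1, 37 and 44.2 CPM in wild type replicates 1, 2 and 3 and 7.15, 6.38 and 6.62 CPM in the mutant replicates, 6.47-fold on the means. The difference lay almost wholly downstream of intron 6. Summed over the 6 exons before intron 6, the libraries had 12.4, 11.5 and 12.6 CPM in wild type and 9.67, 9.27 and 10.7 CPM in the mutant, means of 12.2 ± 0.549 and 9.87 ± 0.72 (SD, n = 3 each) and a ratio of 1.23. Summed over the 14 exons after it, they had 89.2, 68.5 and 81.8 CPM in wild type and 4.66, 3.74 and 2.54 CPM in the mutant, a ratio of 21.9. In each library these sums together exceed the gene level, so reads that span exons were counted in more than 1 exon bin. The groups did not overlap on either side of the intron, but the gap was small before it and wide after it.

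**Figure D2:**
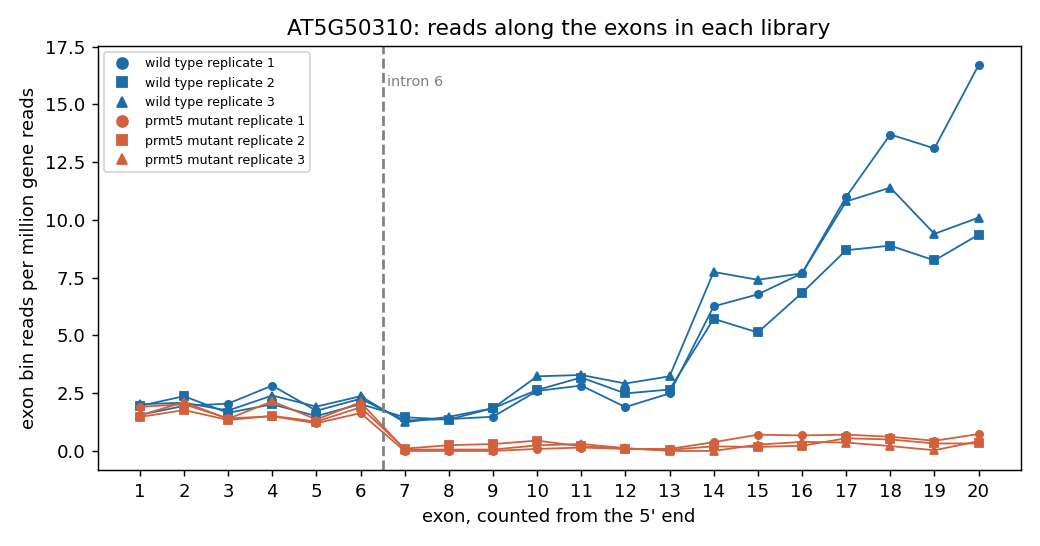
Exon bin reads in CPM, that is per 1000000 gene reads (linear scale), along the 20 exons of AT5G50310, counted from the 5′ end, with 1 line per library and a dashed line at intron 6. All 6 libraries run close together over exons 1 to 6, and the 3 mutant lines drop to near 0 from exon 7 on while the wild type lines climb toward the 3′ end.

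The step was sharp. Exon 6 had mean levels of 2.22 CPM in wild type and 1.88 CPM in the mutant, whereas exon 7 had 1.32, 1.46 and 1.24 CPM in wild type, against 0, 0.0996 and 0.0604 CPM in the mutant. Intron 6 itself, 450 bases at chr5:20475723-20476172, moved the opposite way, with 3, 4 and 0 reads in wild type against 77, 64 and 70 reads in the mutant. Reads spliced over intron 6 numbered 38, 69 and 32 in wild type against 0, 2 and 0 in the mutant. Wild type libraries had spliced reads and almost no intron reads here, and mutant libraries had the reverse.

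Splicing upstream of this intron was seen in both genotypes. The 5 annotated junctions before intron 6 together had 265, 374 and 198 reads in wild type against 168, 185 and 180 in the mutant, a ratio of 1.33 in CPM. The 13 annotated junctions after it had 1715, 2113 and 1229 reads in wild type against 77, 78 and 36 in the mutant, a ratio of 23.1. Per 100 bases, and with the 3 libraries of a group added, the mutant had 167 reads in the exons before the intron, 46.9 in the intron and 24.3 in the exons after it. The same densities were 243, 1.56 and 611 in wild type. Reads counted in more than 1 exon bin raise the exon densities, so these and the intron density are not on 1 scale. Whether the mutant RNA ends within the intron cannot be read from counts per bin. The ends of intron 6 are shown because the step lies between them. In each line the capitals mark the first or the last pair of intronic bases, and 3 exonic bases are included.
intron 6 donor, plus strand, chr5:20475720-20475739: atgGTaagtctttgatgtac
intron 6 acceptor, plus strand, chr5:20476153-20476175: gctataatctactttttcAGgta

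The intron runs from GT to AG. The polyadenylation hexamer AATAAA has 0 matches on the plus strand of the intron, which says only that these letters are not there.

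Of the 33 genes 21 have exon bins, and the 12 without an intron have none. With the exons of each gene divided at its middle by exonic length, AT5G50310 had a ratio of 2.58 in the 5′ part and 23.4 in the 3′ part. The other 20 genes had ratios of at least 3.46 in the 5′ part, the lowest being that of MAF5. FSD1 had 7.34 and 8.64 in the 5′ and 3′ parts, and the cineole synthase gene AT3G25820 had 5.1 and 6.78. DAR6 had 5.25 and 12.2, the 3′ value resting on 61 mutant reads. The ratio was larger in the 3′ part in 14 of the 21 genes and larger in the 5′ part in 7. Among the latter were 4CL8 with 9.03 and 3.36, MEE3 with 9.21 and 6.75, and CHAT with 36.5 and 8.3, where the 5′ part of CHAT had 2 mutant reads. CYP706A3 had 19.7 and 79.5, but these rest on 4 and 2 mutant reads. Read density in general leaned more to the 3′ part in wild type, and its part in these ratios was not tested. The share of all genes with a larger 3′ ratio was not counted, so 14 of 21 is not read as a trait of these genes.

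Intron reads were summed over the 82 intron bins of these genes that cover no exon bin. Another 5 bins, in FSD1, AT3G25820 and TCP1, overlap exon bins and were left out, since they can hold exon reads. In AT5G50310 there were 4.66, 5.36 and 4.73 intron reads per 100 gene reads in wild type, against 36.1, 30.1 and 36.5 in the mutant. Intron 6 alone held 77, 64 and 70 of the 88, 77 and 80 mutant intron reads. The sum therefore restates the intron 6 result and does not describe the other introns of the gene. FSD1 had 2.16, 2.69 and 2.58 in wild type, against 4.14, 3.41 and 3.33 in the mutant. In these genes the groups did not overlap, and the gap was far wider in AT5G50310. The share of all genes with such a shift was not counted, so the small FSD1 difference is no result about that gene.

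MAF5 had 11.7, 9.82 and 13.9 intron reads per 100 gene reads in wild type, against 27.4, 12.2 and 27.9 in the mutant, with mutant replicate 2 inside the wild type range. DAR6 had 12.8, 9.15 and 9.23 in wild type, against 27.5, 80 and 8 in the mutant, where these rest on 11, 8 and 2 intron reads. AT3G25820 had 7.73, 10.8 and 12.8 in wild type, against 18, 10.7 and 11.8 in the mutant. The groups of all 3 genes overlapped.

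FSD1 (AT4G25100) encodes an iron superoxide dismutase, which turns superoxide into hydrogen peroxide and oxygen. It was the most abundant of the 33 genes, at 600, 791 and 935 CPM in wild type replicates 1, 2 and 3 and 108, 51.9 and 117 CPM in mutant replicates 1, 2 and 3. The lowest wild type library was 5.13 times the highest mutant library, and the ratio of means was 8.41. Its CPM per kilobase of exon (RPKM) was 522 in wild type and 62 in the mutant, the highest of the 33 genes.

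In Arabidopsis, FSD1 is known to be used when copper is scarce, while the copper/zinc enzymes CSD1 and CSD2 and their copper chaperone CCS are used when it is plentiful. Values of these relatives are given without a test, since they were picked after the 33 genes were known. The plastid iron enzymes FSD2 and FSD3 were higher in the mutant. They had 31.6 and 41.5 CPM for FSD2 and 63.4 and 85.9 CPM for FSD3 (means of wild type and mutant). CSD1 had 118 CPM in each wild type library and 134, 75.2 and 75.1 CPM in the mutant libraries. CSD2 had 107, 116 and 107 CPM in wild type and 117, 33.4 and 32.3 CPM in the mutant. For CSD1 and CSD2, and also for CCS at 49.5, 28.2 and 31.9 CPM, mutant replicate 1 was near the wild type level and mutant replicates 2 and 3 were below it.

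COPT2 (AT3G46900), a copper uptake transporter that rises in copper deficiency, showed the mirror image, with 14.4, 14.8 and 15.3 CPM in wild type and 17, 33.8 and 35.6 CPM in the mutant. FSD1 did not follow that division of the mutant libraries, being lowest in replicate 2 and alike in replicates 1 and 3. SPL7, the regulator of copper deficiency genes, had means of 39.9 and 44.4 CPM. COPT1 (AT5G59030), another copper transporter gene, moved opposite to COPT2, with 35.4, 41.3 and 41 CPM in wild type and 29.9, 26.9 and 28.2 CPM in the mutant. The copper/zinc enzyme gene CSD3 was higher in the mutant, with means of 43.1 CPM in wild type and 62.9 CPM in the mutant.

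**Figure D3:**
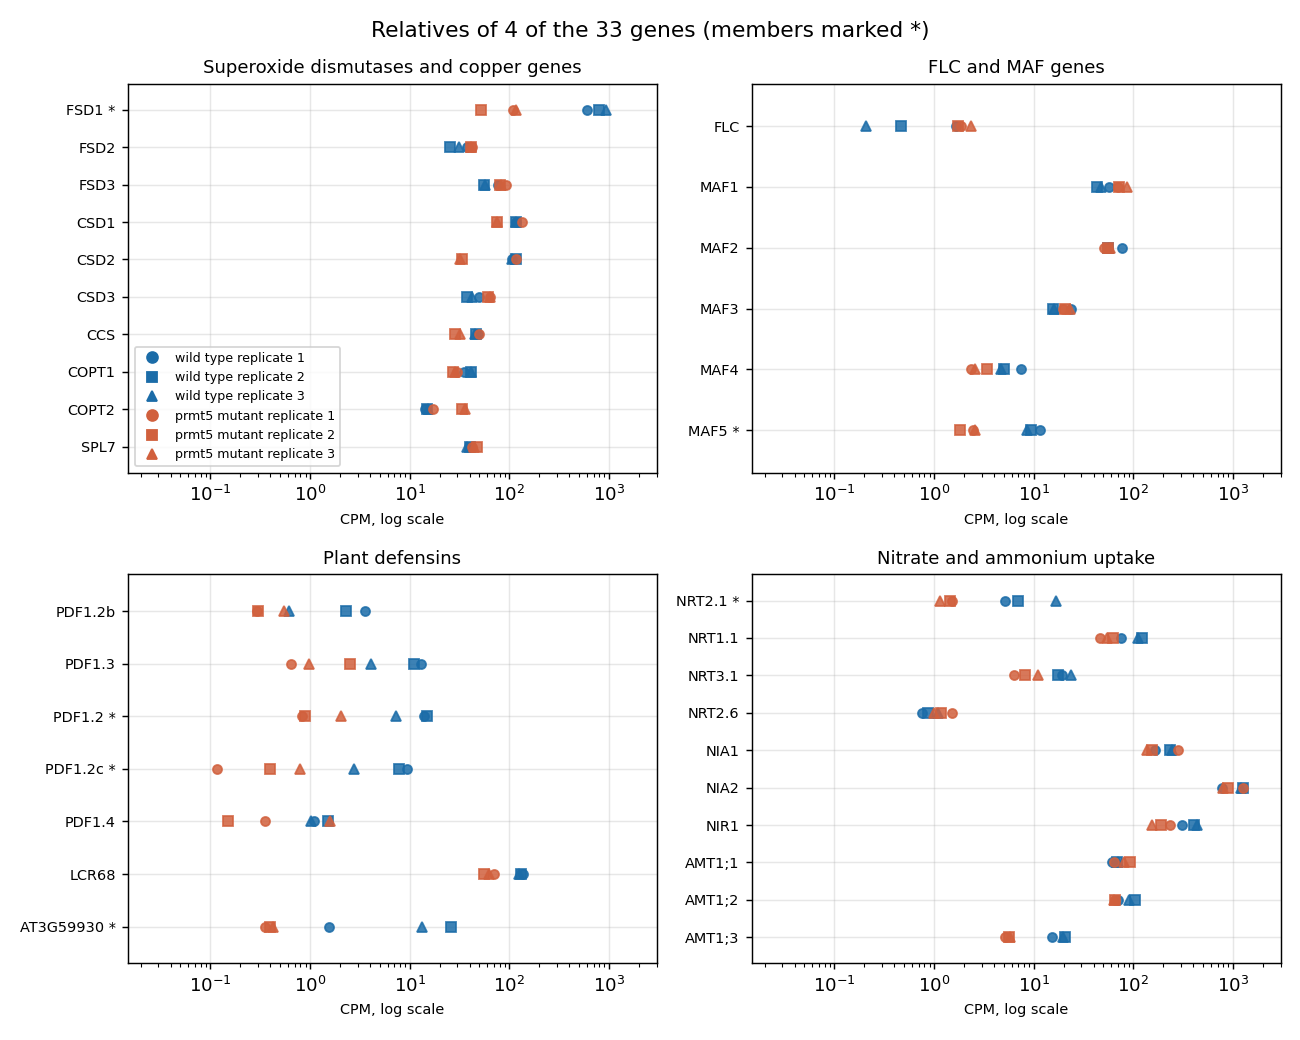
CPM (log scale) in each library of the relatives of FSD1, MAF5, PDF1.2 and NRT2.1, with the lowered genes marked by an asterisk and symbols as in the plot of all 33 genes. FSD1 is the only superoxide dismutase with separate groups in this direction, and CSD2 has mutant replicate 1 at 117 CPM beside replicates 2 and 3 near 33 CPM.

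Defensins, small cysteine-rich antifungal proteins, formed a further group. PDF1.2 (AT5G44420) and PDF1.2c (AT5G44430), classic targets of combined jasmonate and ethylene signalling, are direct neighbours on chromosome 5. PDF1.2 had 14, 14.9 and 7.24 CPM in wild type and 0.821, 0.897 and 2.05 CPM in the mutant, 9.58-fold on the means. PDF1.2c had 9.3, 7.8 and 2.78 CPM in wild type and 0.117, 0.399 and 0.786 CPM in the mutant, 15.3-fold. In both genes wild type replicate 3 was the lowest wild type library and mutant replicate 3 the highest mutant library, so the groups came closest there. The 300 bases upstream of each gene are shown because these neighbours were lowered together, and they differ at the GCC-box GCCGCC, which ethylene response factors bind. Capitals mark that motif, both windows are on the minus strand, and sequences are those of the TAIR10.1 assembly in RefSeq.
PDF1.2 upstream, chr5:17907599-17907898: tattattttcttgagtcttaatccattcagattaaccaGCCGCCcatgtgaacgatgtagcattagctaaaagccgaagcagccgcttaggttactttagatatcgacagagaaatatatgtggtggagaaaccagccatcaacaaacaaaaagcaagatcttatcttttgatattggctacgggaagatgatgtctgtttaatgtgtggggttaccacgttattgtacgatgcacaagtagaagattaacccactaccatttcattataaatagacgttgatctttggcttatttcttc
PDF1.2c upstream, chr5:17909508-17909807: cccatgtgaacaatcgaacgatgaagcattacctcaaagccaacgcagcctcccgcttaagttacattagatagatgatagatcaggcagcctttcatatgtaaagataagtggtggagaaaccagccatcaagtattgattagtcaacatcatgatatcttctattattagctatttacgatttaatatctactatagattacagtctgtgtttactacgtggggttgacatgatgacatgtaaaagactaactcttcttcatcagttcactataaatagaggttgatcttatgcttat

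The PDF1.2c window starts within the stretch that matches the PDF1.2 sequence next to its motif, so the longer 400 bases upstream were also searched. They held 1 match for PDF1.2, beginning 262 bases before the gene, and 0 for PDF1.2c. The 300-base windows aligned over 247 bases with 81.4% identical, and the exonic sequences over 425 bases with 92.2% identical. Reads of such close copies may have been divided between them by the counting, so single levels in this family are uncertain. The other close copies are on chromosome 2. PDF1.2b (AT2G26020) had 3.58, 2.29 and 0.618 CPM in wild type and 0.293, 0.299 and 0.544 CPM in the mutant, and PDF1.3 (AT2G26010) had 12.9, 11 and 4.12 CPM against 0.645, 2.49 and 0.967 CPM. Both kept every wild type library above every mutant library, as did 19.3% of genes with a mean wild type level of at least 2 CPM. They missed the selection because their closest libraries were only 1.14-fold and 1.65-fold apart. For PDF1.2b, wild type replicate 3 and mutant replicate 3 had 18 reads each, so only the library totals set them apart.

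Among more distant defensins, LCR68 (AT2G02130) had 131 ± 5.18 CPM in wild type and 62.8 ± 7.65 CPM in the mutant, and PDF1.4 had groups that overlapped. AT3G59930, annotated as defensin-like, had 60, 1544 and 386 reads in wild type against 12, 16 and 14 in the mutant. Its wild type levels were 16.7-fold apart, the widest wild type spread of the 33 genes, and wild type replicate 1 lay nearer to the mutant libraries than to wild type replicate 2. Regulators of PDF1.2 were at like levels in both genotypes, with means of 2.49 and 2.61 CPM for ORA59, the ethylene response factor that activates PDF1.2, 38.6 and 37.2 CPM for the jasmonate receptor COI1, and 92.2 and 107 CPM for EIN3 of the ethylene pathway.

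Enzymes of terpene and volatile synthesis made up another group. AT3G25820 and AT3G25830 (both TPS-CIN) encode synthases of the monoterpene 1,8-cineole and lie 2 genes apart on chromosome 3. AT3G25820 had 53.4, 114 and 80.9 CPM in wild type and 16.8, 8.17 and 15.6 CPM in the mutant, 6.13-fold on the means. AT3G25830 had nearly the same count in every library, for example 2056 reads for each in wild type replicate 1. The exonic sequences of this pair matched in all 1943 aligned bases, so their reads cannot be told apart and the 33 genes are not 33 independent measurements. The upstream windows were also identical over 299 aligned bases, and the one of AT3G25820 is shown for the duplication, with the letters TATAAA in capitals.
AT3G25820 upstream, plus strand, chr3:9438946-9439245: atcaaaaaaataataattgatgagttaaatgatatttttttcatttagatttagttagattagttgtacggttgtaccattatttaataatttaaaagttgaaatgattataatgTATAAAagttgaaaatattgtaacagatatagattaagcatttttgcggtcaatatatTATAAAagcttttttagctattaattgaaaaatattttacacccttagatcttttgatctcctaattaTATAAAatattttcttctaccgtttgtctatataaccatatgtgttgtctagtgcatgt

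CYP706A3 (AT5G44620), a cytochrome P450 known to oxidise floral sesquiterpenes, had 74, 98 and 74 reads in wild type against 2, 4 and 0 in the mutant, a ratio of 38.6 in CPM. The neighbouring terpene synthase gene AT5G44630 had 4, 20 and 14 reads in wild type and 0 in every mutant library, too few for the test. AT3G29410, a terpenoid cyclase gene, had 4.95 ± 0.708 CPM in wild type and 0.917 ± 0.323 CPM in the mutant. Other terpene synthase genes were not lowered. TPS14 (AT1G61680) had means of 4.17 CPM in wild type and 4.97 CPM in the mutant, and TPS04 (AT1G61120) 0.236 and 0.22 CPM. TPS10 and TPS21 had 0 reads in every library. CHAT (AT3G03480), which makes the leaf volatile (Z)-3-hexenyl acetate, had 94, 220 and 84 reads in wild type against 26, 8 and 0 in the mutant, with mutant replicate 1 well above the other mutant libraries. HPL1, the hydroperoxide lyase earlier in that route, had 46, 45 and 48.5 CPM in wild type and 20.5, 55.5 and 52.6 CPM in the mutant, and only mutant replicate 1 was low.

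Because CYP706A3 is known from flowers, floral markers bear on it. By edgeR, 15.9% of all genes tested were lower and 18.6% higher. Floral organ identity and meristem genes were lower in 3 and higher in 1 of 6 tested genes. The summed level of the floral list was 14.7 to 16.9 CPM in wild type and 11.9 to 16 CPM in the mutant. Tapetum and pollen wall genes were lower in 2 and higher in 0 of 4 tested genes. Their sums were 24.4 to 30.3 CPM in wild type and 17.9 to 22.7 CPM in the mutant. Of the 13 genes on that list, 3 (A6, CYP704B1 and DYT1) had 0 reads in all libraries. The part of floral tissue in the CYP706A3 level was not tested.

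NRT2.1 (AT1G08090), the main high-affinity nitrate transporter of roots, had 5.19, 6.99 and 16.7 CPM in wild type and 1.52, 1.44 and 1.15 CPM in the mutant. Wild type replicate 3 was the highest by far, and the mutant libraries were alike. Of 14 nitrate and ammonium genes, 10 were tested, 6 were lower in the mutant including NRT2.1, and 0 were higher by edgeR, where 15.9% and 18.6% of all genes tested were lower and higher. The median log2 change of the 10 was -0.75, against -0.02 over all genes tested. The count and the median include NRT2.1, which the rule chose on this contrast. The list was also chosen with earlier results of these data known. The summed level of the 14 genes overlapped, at 1493 to 2235 CPM in wild type and 1298 to 1957 CPM in the mutant. NRT3.1 (AT5G50200), the partner protein that NRT2.1 needs, had 20.1 ± 3.12 CPM in wild type and 8.54 ± 2.3 CPM in the mutant (SD, n = 3 each), with an edgeR log2 difference of -1.30 ± 0.18 (SE; adjusted p = 0.000432).

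The ammonium transporter gene AMT1;3 (AT3G24300) had 18.6 ± 2.8 CPM in wild type and 5.51 ± 0.353 CPM in the mutant, with an edgeR log2 difference of -1.83 ± 0.15 (SE; adjusted p = 6.58e-06). It was lower in 3 of 3 mutant libraries and missed the selection with a closest ratio of 2.67. NIR1 (AT2G15620), nitrite reductase, had an edgeR log2 difference of -1.06 ± 0.19 (SE; adjusted p = 0.00184), and the dual-affinity transporter NRT1.1 (AT1G12110) one of -0.99 ± 0.20 (SE; adjusted p = 0.0056). The nitrate reductase genes NIA1 and NIA2 were not called, with means of 214 and 190 CPM for NIA1 and 1075 and 979 CPM for NIA2.

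MAF5 (AT5G65080) belongs to the FLC family of MADS-box proteins, which repress flowering. It had 11.5, 9.41 and 8.65 CPM in wild type and 2.46, 1.84 and 2.6 CPM in the mutant, 4.29-fold on the means and with replicates close together in both groups. It is the last gene of a tandem array on chromosome 5. Its neighbour MAF4 had 7.53, 5.01 and 4.73 CPM in wild type and 2.37, 3.39 and 2.6 CPM in the mutant, without overlap. MAF2 and MAF3, next in the array, had groups that overlapped, with means of 63.6 and 55 CPM for MAF2 (AT5G65050) and 18.4 and 21.2 CPM for MAF3. Outside the array, MAF1 had 56.7, 42.7 and 47.6 CPM in wild type and 69.7, 71.9 and 86 CPM in the mutant. FLC itself was low, at 1.66, 0.471 and 0.206 CPM in wild type and 1.88, 1.74 and 2.33 CPM in the mutant, and wild type replicate 1 was close to the mutant level.

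DAR6 (AT5G66620) encodes a DA1-related protein, of a family in which Arabidopsis DA1 limits organ growth. It had 3.87, 7.16 and 6.69 CPM in wild type and 1.17, 0.249 and 0.755 CPM in the mutant. In the same array, DAR5 had means of 2.17 and 1.23 CPM, DAR7 8.14 and 7.66 CPM, and DAR3 0.633 and 0.607 CPM. DAR4, elsewhere on the chromosome, had 37.8 ± 1.65 and 68.9 ± 7.23 CPM.

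Lipid-transfer and other secreted or lipid-binding proteins were encoded by several of the 33 genes. AT1G62500 had 16.3, 13.8 and 15.2 CPM in wild type and 2.17, 3.29 and 1.81 CPM in the mutant. AT1G62510, a neighbour of the same superfamily, was not called, with means of 25.6 CPM in wild type and 24.4 CPM in the mutant. The adjacent genes AT5G46890 and AT5G46900, of the same lipid-transfer superfamily, had ratios of means of 6.56 and 7.82. They matched in 94.7% of 582 aligned exonic bases, so reads may be divided between them. AT3G16670, of the pollen Ole e 1 allergen and extensin family, had 49.3 RPKM in wild type and 2.7 in the mutant, while the neighbour of its family, AT3G16660, was not called. AT2G16005, with an MD-2-related lipid recognition domain, had 6.34, 10.6 and 13.7 CPM in wild type and 0.293, 0.399 and 1.03 CPM in the mutant. AT1G14960, of the polyketide cyclase and lipid transport family, and AT5G62340, of the pectin methylesterase inhibitor family, had ratios of 8.17 and 6.34. AT5G62350, a neighbour of AT5G62340 in the same family, was called higher, with means of 116 CPM in wild type and 160 CPM in the mutant.

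Transcription factor genes other than MAF5 were near the wild type minimum of 2 CPM. TCP1 (AT1G67260), of the TCP family, had 75, 113 and 76 reads in wild type against 6, 10 and 16 in the mutant. MEE3 (AT2G21650), with a homeodomain-like fold, had 141, 140 and 86 reads in wild type against 14, 6 and 20 in the mutant. SP1L4 (AT5G15600), a SPIRAL1-like protein of a family that acts on cortical microtubules, had 8.58 ± 1.86 and 1.64 ± 0.468 CPM. The glutathione S-transferase gene AT3G62760 (ATGSTF13) had 112, 102 and 43 reads in wild type against 2, 4 and 4 in the mutant, a ratio of 21.9 in CPM, and 4CL8 had a ratio of 7.45.

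Genes without a known function included those with the widest gaps. AT3G01345 had 3316, 3108 and 514 reads in wild type against 26, 38 and 28 in the mutant, and its wild type libraries were 4.88-fold apart. The pseudogene AT5G35935 had 354, 326 and 261 reads in wild type against 6, 6 and 8 in the mutant, a ratio of 41.7 in CPM, and its closest libraries were 22.7-fold apart. The pseudogenes AT3G15310 and AT3G21050 had ratios of means of 9.05 and 8.13. AT4G36230 and AT5G35480 had ratios of 4.5 and 5.12, and MRU1 (AT5G35490), next to AT5G35480 and identical to it in 71.3% of 321 aligned exonic bases, had 6.54.

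The 33 genes shared some features that the rule did not use, which are given as shares without a test. They were short, with a median exonic length of 1073 bases against 1580 over the 18565 genes with a mean wild type level of at least 2 CPM, and a median of 1 intron bin against 4. Genes without an intron bin made up 36.4% of the 33 against 15.5%, and pseudogenes 9.09% against 0.549%. None of the 33 overlapped another gene, against 3460 of the 18565 that did. Values that the rule did use are given next as a description. The highest over the lowest wild type library had a median of 1.69 against 1.21 over those 18565 genes, and 13 of the 33 were spread at least 2-fold. Wild type replicate 1 was the lowest wild type library in 17 genes, and mutant replicate 3 the highest mutant library in 19.

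By chromosome, 14 genes lay on chromosome 5, 11 on chromosome 3, 4 on chromosome 1, and 2 each on chromosomes 2 and 4. A gene of the 33 lay within 5 annotated genes of another in 8 cases, the 4 pairs already named. The nearest tested gene on each side that is not one of the 33 gave 59 neighbours. Of these 10 were lower, 7 were higher and 42 were not called, beside 15.9% lower and 18.6% higher over all genes tested, so the lowered neighbours are near the background share. Their median log2 change was -0.01. The neighbours furthest below 0 were the terpenoid synthase gene AT3G29430 beside AT3G29410, at -4.89 and with at most 2 mutant reads, the pseudogene AT5G44417 beside PDF1.2, at -2.60, and AZG2, a purine permease gene beside AT5G50310, at -1.75.

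**Figure D4:**
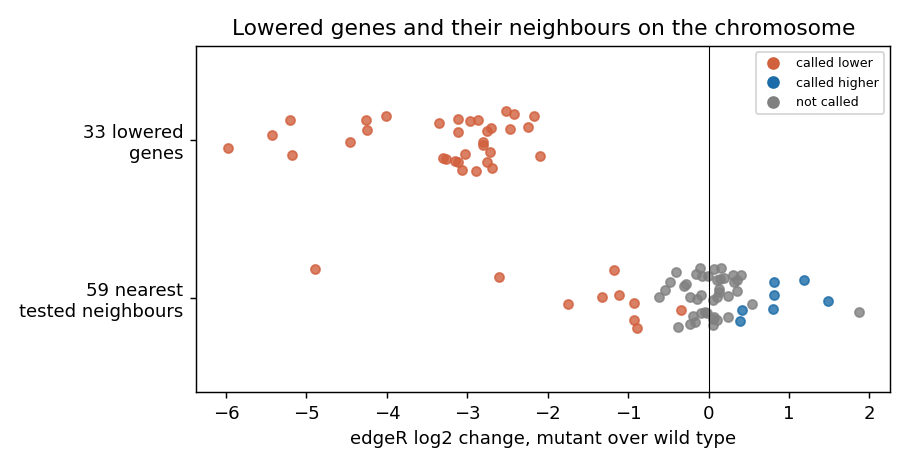
The edgeR log2 change (mutant over wild type) of the 33 lowered genes and of their 59 nearest tested neighbours, with calls by colour and points spread vertically at random for legibility. The neighbours gather around 0, with a median of -0.01, and AT3G29430 at -4.89 stands furthest left among them.

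Short motifs were counted on both strands of the 300 bases upstream of each gene, and shares are of the 33 genes against all 32834 nuclear genes. TATAAA was found in 81.8% against 51.2%. The ABRE core ACGTG was found in 39.4% against 26%, and the G-box CACGTG, which contains it, in 9.09% against 7.47%. The GCC-box GCCGCC was found in 6.06% against 2.61%, in PDF1.2 and AT3G59930. The W-box forms TTGACC and TTGACT were found in 12.1% against 14% and in 15.2% against 22.2%, the CArG-like motif in 15.2% against 21.3%, and the evening element AAAATATCT in 3.03% against 2.62%. The DRE core CCGAC was found in 0 of the 33 windows and in 15.3% of all. GTAC, the core bound by SPL7 and added after the values were seen, was found in 48.5% against 38.7%, with 1 copy upstream of FSD1. The FSD1 window adjoins an annotated outermost exon that had 0 reads in every library. Bases directly upstream of the first FSD1 exon with reads were therefore not searched.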

How the data were processed

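The authors deposited raw integer counts for every library, separately for genes, for the exon and intron pieces of each gene and for spliced junctions; no scaling had been applied, per the file headers and the values. STAR and the TAIR10 build are named in the submitters' processing notes. The counting program, its strand setting and the counting of mates were not given in the sources used here. Of 196 nonzero counts of the 33 genes, 81.6% were even, so reads may not be independent fragments. Among genes with a mean wild type level of at least 2 CPM, 76.2% were even without an intron and 65.2% with introns.

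CPM was the count over the library's gene total, times 1000000, and RPKM divided it by the exonic length in the deposited gene table. Genes were tested with edgeR 4.0.16 in R 4.3.3 (robust quasi-likelihood, TMM, default filter, Benjamini-Hochberg adjusted p under 0.05), with DESeq2 1.42.0 as an alternative, and the fit was tested on simulated data. Symbols and sequences came from RefSeq's TAIR10.1, where 32834 of 32835 nuclear genes overlapped the annotated gene of the same locus tag and 98.7% of 120489 intron bins ran from GT to AG. Identity is from pairwise alignments with Biopython 1.88. The 33 genes and all gene lists were chosen with earlier results of these data known. The genes named are the most abundant, those with the widest ratios or spread, those at the threshold, neighbours, families and genes on fixed lists, and the others, with relatives of 6 families, were named after their values were seen. The pairing of replicate numbers was checked.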

Additional observations from a re-analysis of the deposited data

How the results depend on the processing

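The set grew or shrank with its limits. It held 115 genes at a 2-fold threshold and 8 at 5-fold, and 34 with TMM or DESeq2 library sizes. With a wild type minimum of 1 or 5 CPM it held 44 or 22 genes. Leaving out 1 library gave 34 to 60 genes, with 60 without wild type replicate 1 and 54 without mutant replicate 1, and between 31 and 33 of the 33 remained. From summed exon bins it held 23 genes, 20 of them shared, because 12 of the 33 have no exon bins; the other gene not shared is CYP706A3.

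With the coverage along genes as a covariate, 1729 genes were called lower and 2469 higher in the mutant, against 3494 and 4074, and all 33 genes stayed called. The rule used the same contrast, so calls kept by the 33 genes say nothing about the part of coverage in their levels. Leaving out 1 library gave 2238 to 3667 lower genes, the lowest without wild type replicate 3, with 2256 without mutant replicate 2, and 2872 to 4366 higher genes. Of the genes on all lists, 29 to 54 were then lower, 29 without wild type replicate 3, and 34 to 49 higher, and 31 to 33 of the 33 were called. Same-numbered libraries did not deviate together (correlations of -0.114, -0.0503 and -0.0168 for numbers 1, 2 and 3), so the replicate block is given only here. With it 3032 genes were lower and 3798 higher, 47 and 41 of those on lists, and 30 of the 33 were called. CHAT and both TPS-CIN genes were not called under the block. CHAT was also not called without wild type replicate 2 or 3 or mutant replicate 2. AT3G59930 was not called with no filter or without any 1 of the libraries other than wild type replicate 1. No named gene changed direction in any setting run. Genes with few mutant reads, such as CYP706A3, have ratios that depth limits.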

Other observations

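Beyond nitrate uptake, none of the 33 genes is on the other lists of known pathways. Over 21 lists, 216 of 241 genes were tested by edgeR, of which 49 were lower and 51 higher in the mutant, with a median log2 change of -0.04. Over all genes tested 15.9% were lower and 18.6% higher, and counts near these shares are no result about a list. Genes of nutrient shortage other than nitrogen were mostly called higher, with 14 of 18 iron deficiency genes, 9 of 12 phosphate starvation genes and 8 of 12 sulfur deficiency genes, and 1, 1 and 0 lower. Of abscisic acid and drought genes 4 of 9 were higher and 1 lower, and of ER body and root myrosinase genes 4 of 10 were higher and 1 lower.

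Low oxygen genes were lower in 5 of 9 cases, root triterpene cluster genes in 3 of 7 and indole glucosinolate and camalexin genes in 3 of 10, with 0 higher in each. Jasmonate response genes were lower in 2 of 12 and salicylic acid defence genes in 1 of 13, with 0 higher. Aliphatic glucosinolate genes were lower in 2 and higher in 1 of 15, heat shock genes lower in 2 and higher in 1 of 8, and auxin early response genes lower in 2 and higher in 2 of 11. Expansin and XTH cell wall genes were lower in 2 and higher in 2 of 14. Among markers of cell types, trichome genes were lower in 4 and higher in 1 of 7, root hair genes higher in 3 of 12 and root endodermis genes higher in 1 of 9.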
